A study of Arabidopsis thaliana with 2 samples.

Results

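Gibberellins are diterpenoid hormones that promote germination, stem and hypocotyl elongation and leaf expansion. The last steps of their synthesis are made by soluble dioxygenases: GA20OX enzymes make the immediate precursors, GA3OX enzymes turn these into the active hormone, and GA2OX enzymes inactivate it. Active gibberellin binds the receptor GID1, which then captures the DELLA proteins, growth repressors such as RGA and GAI, for destruction. In Arabidopsis several GA20OX and GA3OX transcripts are known to be lower, and several GA2OX transcripts higher, when gibberellin signalling is strong, which is called feedback and feedforward control.

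The genes described are 10 of the 33565 gene rows of the deposited expression table, chosen by their locus identifiers: GA20OX1 (AT4G25420), GA20OX2 (AT5G51810), GA3OX1 (AT1G15550), GA3OX2 (AT1G80340), GA2OX1 (AT1G78440), GA2OX2 (AT1G30040), GA2OX6 (AT1G02400), GID1A (AT3G05120), RGA (AT2G01570) and GAI (AT1G14920). Shoots of wn1, which the labels call a whitening mutant of Arabidopsis, were compared by RNA sequencing with wild-type shoots, both in the Col-0 background. Seedlings of both genotypes were 7 days old and were raised at 22 °C with 16 h of light and 8 h of dark on half-strength solid medium without further treatment, and the tissue label adds cotyledon. The gene altered in wn1 and the number of seedlings pooled are not given in the labels. There was 1 library per genotype, so the values describe these libraries, and neither a replicate spread nor a p-value can be given.

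Values are FPKM, which counts fragments per transcript length and per mapped total, so levels may be compared between genes. A difference is log2((wn1 FPKM + 1)/(wild-type FPKM + 1)), which understates the ratio of low genes, and plain ratios are given without the added 1. A gene counted as measured when its mean FPKM over the 2 libraries was at least 1, as 18788 genes were, and as higher or lower where the difference reached 2-fold. Steps between low FPKM values gave estimates of about 15400000 fragments for wild type and 18800000 for wn1. Fragment numbers given for single genes follow from these, and intervals are 95% intervals for counting error only, with no allowance for differences between plants or harvests. In shoots sequenced in bulk, fewer cells of a type and less RNA per cell cannot be told apart.

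Expression of the synthesis genes GA3OX1, GA20OX2 and GA20OX1 was lower in wn1, whereas GA3OX2 and the inactivation genes GA2OX2 and GA2OX1 had higher FPKM there. GA2OX1, the receptor genes and the DELLA genes all lay within 2-fold. Of the 10 genes, 9 were measured, since GA20OX1 had a mean below 1 FPKM. Among those 9, GA3OX1 and GA20OX2 were at least 2-fold lower in wn1, GA3OX2 and GA2OX2 at least 2-fold higher, and 5 lay within 2-fold. Over all measured genes, 3.65% reached 2-fold in the lower direction and 3.67% in the higher, together 7.32%. The share was 6.77% among genes with a mean from 1 to under 5 FPKM and 7.52% above that. GA20OX2, GA2OX1 and GA2OX2 were measured only through the library in which they were high, so the 4 of 9 describes these genes and is no support for a shift of the pathway.

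**Figure D1:**
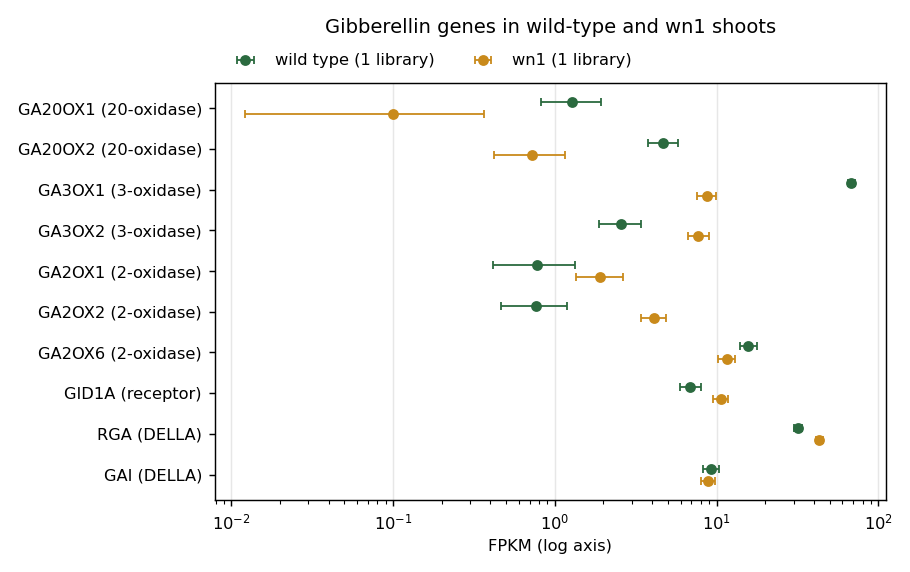
FPKM of the 10 gibberellin genes in the wild-type and wn1 libraries on a log axis. Points are the single values and bars are 95% counting intervals from estimated fragments. The points lie farthest apart for GA20OX1, which rests on about 2 fragments in wn1, and GA3OX1 separates from 68.2 to 8.71 FPKM.

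The 3-oxidases showed the largest shift in makeup. GA3OX1, the main 3-oxidase of vegetative shoots, had 68.2 FPKM in wild type and 8.71 FPKM in wn1. It was the highest of the 10 genes in wild type, while in wn1 RGA, GA2OX6, GID1A and GAI stood above it. The log2 difference was -2.83, which ranked 46 from the lowest among measured genes. At least 4-fold lower were 0.681% of measured genes. The plain ratio of wild type to wn1 was 7.83, with a counting interval of 6.77 to 9.13, on about 1325 and 206 fragments.

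GA3OX2, which acts beside GA3OX1 in germinating seeds and young seedlings, went the other way. It had 2.56 FPKM in wild type and 7.73 FPKM in wn1, a log2 difference of 1.29, on about 47 and 174 fragments. The plain ratio of wn1 to wild type was 3.02, with a counting interval of 2.19 to 4.28. Of all measured genes, 1.68% had a higher log2 difference. GA3OX3 and GA3OX4, which are known from reproductive tissue, were listed at 0 in both libraries.

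The ratio of GA3OX1 to GA3OX2 within a library cannot be moved by any scaling of that library. It was 26.6 in wild type and 1.13 in wn1, so the ratio was 23.6 times larger in wild type, with a counting interval of 16.5 to 34.6. These genes differed in opposite directions, so the change in ratio follows from their single values. GA3OX1 made up 96.4% of the summed 3-oxidase FPKM in wild type and 53.0% in wn1. The summed 3-oxidase FPKM was 70.8 in wild type and 16.4 in wn1, a ratio of 4.30.

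GA20OX2 and GA20OX1, the 20-oxidases among the 10 genes, had low FPKM in both libraries and less in wn1. GA20OX2, one of the main 20-oxidases of shoots, had 4.68 FPKM in wild type and 0.724 FPKM in wn1, a log2 difference of -1.72, and 1.02% of measured genes lay lower. Its plain ratio of wild type to wn1 was 6.47, with a counting interval of 3.73 to 11.3, on about 88 and 17 fragments.

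GA20OX1, which acts with GA20OX2 in stem elongation, had 1.29 FPKM in wild type and 0.101 FPKM in wn1. This corresponded to about 23 fragments in wild type and only 2 in wn1. The plain ratio of wild type to wn1 was 12.8, with a wide counting interval of 3.47 to 123. Its log2 difference of -1.05 passed 2-fold, but the gene was not counted because of its low mean.

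The other 20-oxidases stayed below 1 FPKM in both libraries. GA20OX5 had 0.277 and 0.512 FPKM, on about 4 and 9 fragments, and GA20OX3 was listed at 0 in wild type while wn1 had 0.116 FPKM, on about 3 fragments. GA20OX4 was listed at 0 in both. Summed over the family, 20-oxidase FPKM was 6.25 in wild type and 1.45 in wn1, also a ratio of 4.30.

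**Figure D2:**
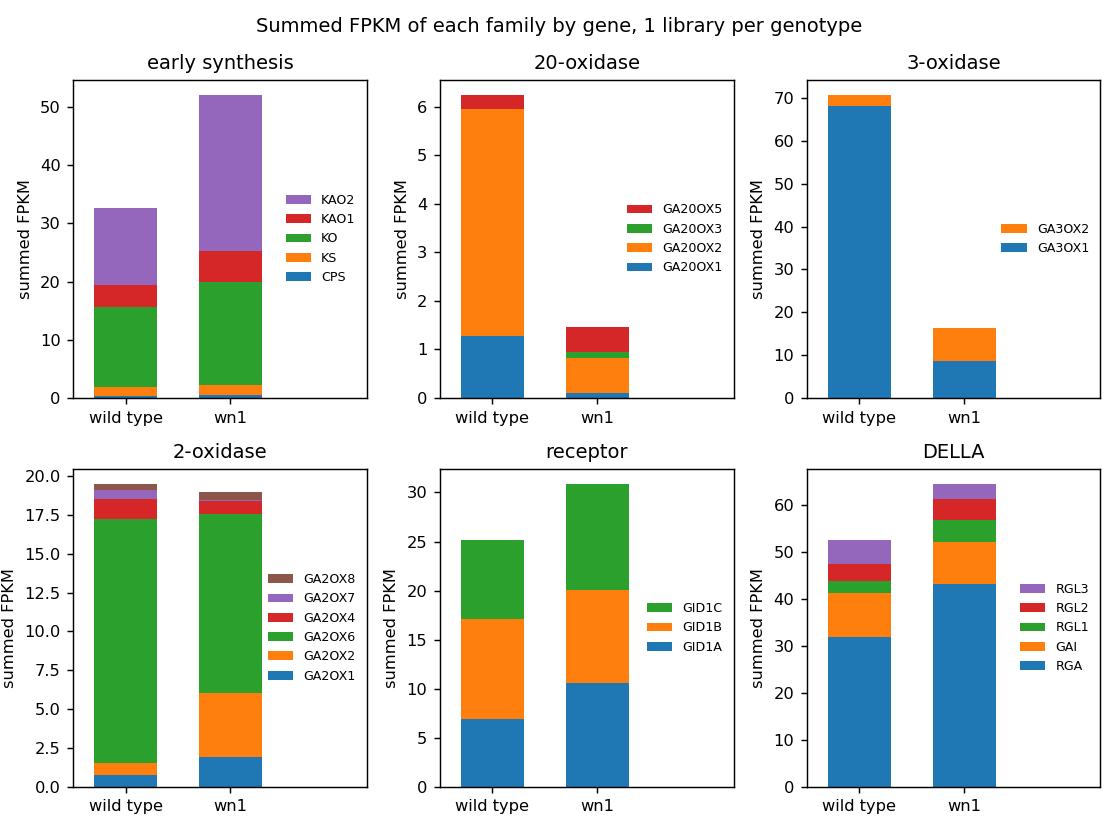
Summed FPKM of 6 groups of gibberellin genes in wild type and wn1, stacked by gene, with a separate linear axis for each group and 1 library per bar. The 20-oxidase and 3-oxidase bars are lower in wn1, at 1.45 and 16.4 FPKM, while the 2-oxidase bars are nearly level at 19.5 and 19.0 FPKM with a different makeup.

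The 2-oxidases had nearly the same sum in both libraries, 19.5 FPKM in wild type and 19.0 FPKM in wn1, but a different composition. GA2OX6 was the most abundant in each library, with 15.7 FPKM in wild type and 11.6 FPKM in wn1. The log2 difference was -0.41 and the plain ratio of wild type to wn1 was 1.36, with a counting interval of 1.14 to 1.62. GA2OX6 made up 80.5% of the summed 2-oxidase FPKM in wild type and 60.9% in wn1.

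GA2OX2, which inactivates active gibberellin and its direct precursors, had 0.766 FPKM in wild type and 4.09 FPKM in wn1. The log2 difference was 1.53, and 1.04% of measured genes lay higher. The plain ratio of wn1 to wild type was 5.34, with a counting interval of 3.23 to 8.81, on about 20 and 127 fragments. The table lists 2 transcripts for this gene and 1 for each of the other 9, so its fragment numbers are the least certain.

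GA2OX1, an enzyme of the same kind, had 0.777 FPKM in wild type and 1.91 FPKM in wn1, a log2 difference of 0.71 that lay within 2-fold. Its plain ratio of wn1 to wild type was 2.46, with a counting interval of 1.25 to 4.90, on about 13 and 38 fragments. GA2OX1 and GA2OX2 stood at almost equal FPKM in wild type, while GA2OX2 was 2.14 times GA2OX1 in wn1. The counting interval of that change in ratio ran from 0.900 to 5.08, so it was not resolved at this depth.

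Within a library, GA2OX6 had 20.5 times the FPKM of GA2OX2 in wild type and 2.82 times in wn1. That ratio was 7.25 times larger in wild type, with a counting interval of 4.24 to 12.3. This pair also joins genes that differed in opposite directions. GA2OX4 had 1.31 and 0.858 FPKM, and GA2OX3 was listed at 0 in both libraries. GA2OX7 and GA2OX8 act on earlier precursors. GA2OX7 had 0.575 FPKM in wild type and 0.0674 FPKM in wn1, on about 8 fragments and 1, with a ratio of 8.52 and a counting interval of 1.31 to 433. GA2OX8 had 0.376 and 0.495 FPKM.

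Synthesis genes were also set against GA2OX2 within each library. GA3OX1 had 89.0 times the FPKM of GA2OX2 in wild type and 2.13 times in wn1. GA20OX2 had 6.11 times the FPKM of GA2OX2 in wild type and 0.177 times in wn1, so the order of this pair was inverted. Both pairs were picked after the values were seen and join genes that differed in opposite directions.

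The receptor and DELLA genes lay within 2-fold. GID1A, a gibberellin receptor, had 6.89 FPKM in wild type and 10.6 FPKM in wn1, a log2 difference of 0.55, and 12.2% of measured genes lay higher. The other receptor genes, GID1B and GID1C, stood at 10.2 and 8.10 FPKM in the wild-type library and at 9.44 and 10.8 FPKM in the wn1 library. In wild type GID1B was highest and GID1A lowest, while in wn1 the receptors stood between 9.44 and 10.8 FPKM. The plain ratio of wn1 to wild type was 1.54 for GID1A, with a counting interval of 1.27 to 1.85, and 0.928 for GID1B, with an interval of 0.786 to 1.09.

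RGA, the most abundant DELLA transcript in both libraries, had 32.0 FPKM in wild type and 43.1 FPKM in wn1, a log2 difference of 0.42. Its plain ratio of wn1 to wild type was 1.35, with a counting interval of 1.25 to 1.46. GAI, its closest relative, had 9.27 and 8.86 FPKM, a log2 difference of -0.06, and its interval of 0.818 to 1.11 included equality. RGA had 3.45 times the FPKM of GAI in wild type and 4.87 times in wn1, and the counting interval of the change in this ratio was 1.19 to 1.68. DELLA protein is controlled by destruction, so these values describe transcripts only.

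Among the remaining DELLA genes, RGL1 had 2.52 FPKM in wild type and 4.66 FPKM in wn1, RGL2 had 3.66 and 4.66, and RGL3 had 5.08 and 3.099. RGL3 was thus the third DELLA transcript in wild type and the lowest in wn1. The plain ratio of wn1 to wild type was 1.85 for RGL1, with a counting interval of 1.39 to 2.48. For RGL3 that ratio was 0.61, with an interval of 0.475 to 0.780. The DELLA sum was 52.5 FPKM in wild type and 64.4 FPKM in wn1, and the receptor sum was 25.2 and 30.9.

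The differences of GID1A, RGA and GAI lay inside the range of commonly used reference genes, a range set at its ends by UBC9 and ACT2. The 8 reference genes had log2 differences from -0.58 for UBC9 to 0.85 for ACT2, with a median of 0.06, and all lay within 2-fold. The other 6 lay between -0.28 and 0.32, and GID1A at 0.55 and RGA at 0.42 lay above these. ACT2, an actin gene, had 486 and 876 FPKM, UBQ10, a polyubiquitin gene, had 1231 and 1533, and PP2AA3, a phosphatase subunit gene, had 33.5 and 33.3. GA2OX1 and GA2OX6 also lay inside that range. GA3OX1, GA20OX2, GA3OX2 and GA2OX2 lay outside it. All measured genes had a median of 0.03 with quartiles of -0.25 and 0.31.

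**Figure D3:**
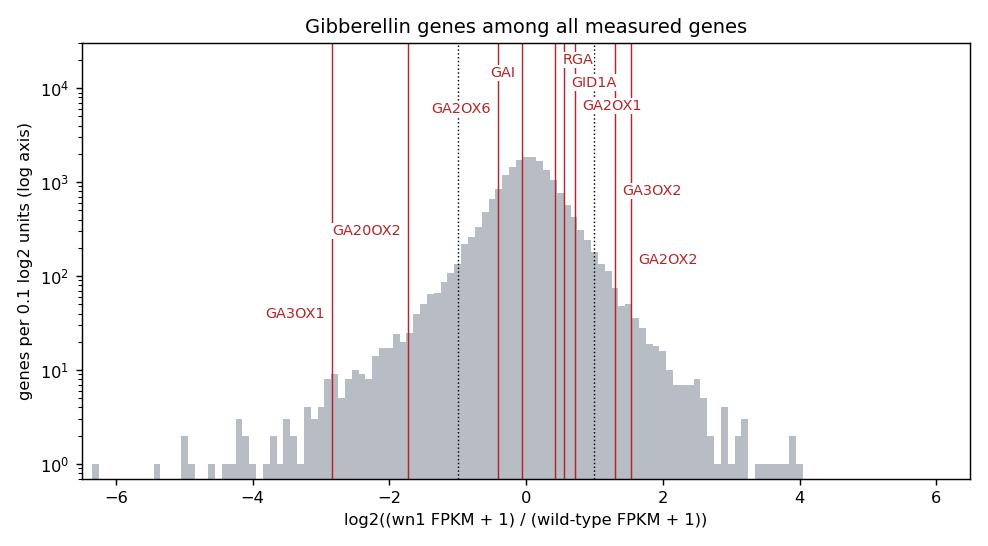
Number of measured genes per 0.1 log2 units of difference between wn1 and wild type (bars, log axis), with vertical lines at the 9 measured gibberellin genes and dotted lines at 2-fold; genes beyond the axis ends are not drawn. GA3OX1 at -2.83 and GA20OX2 at -1.72 lie in the lower tail, GA3OX2 at 1.29 and GA2OX2 at 1.53 in the upper tail, and the other 5 between the dotted lines.

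A further 33 genes of gibberellin synthesis, transport and response were examined. Of these, 20 were measured and 6 were listed at 0 in both libraries. None of the 20 was higher in wn1 by 2-fold or more, 2 were lower by 2-fold or more, and the other 18 differed by less, with a median of 0.05 against 0.03 for all measured genes. Beside these counts stand the 3.67% of all measured genes that were higher and the 3.65% that were lower. SWEET14, 1 of the 2, was measured only through the wild-type library.

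Of the 5 early synthesis genes 4 were measured, and none of them reached 2-fold by the log2 difference. CPS, which makes the first committed intermediate, had only 0.305 and 0.433 FPKM and was not measured. KS, the next enzyme, had 1.63 FPKM in wild type and 1.75 FPKM in wn1. KO, the ent-kaurene oxidase of the plastid envelope, had 13.8 and 17.8. KAO1 and KAO2, the ent-kaurenoic acid oxidases that make the first gibberellin, stood at 3.75 and 13.3 FPKM in the wild-type library and at 5.27 and 26.8 FPKM in the wn1 library. KAO2 came closest to the threshold with a log2 difference of 0.96, while its plain ratio of wn1 to wild type was 2.02. The early synthesis sum was 32.8 FPKM in wild type and 52.1 in wn1, opposite in direction to the summed 20-oxidases and 3-oxidases.

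Of the 3 transporter genes, 2 were lower in wn1 by 2-fold or more, against 3.65% of all measured genes. They are the 2 lower genes among the 20 measured above. NPF3.1 (AT1G68570), a membrane carrier that takes up gibberellin among other substrates, was the highest of all the gibberellin genes examined, with 191 FPKM in wild type and 74.0 FPKM in wn1, a log2 difference of -1.35. SWEET13 and SWEET14 are sugar transporters that also carry gibberellin. SWEET14 had 5.70 and 0.554 FPKM, a log2 difference of -2.11 on about 90 and 11 fragments. SWEET13 had 5.98 and 2.59 FPKM, just inside the threshold at -0.96, with a plain ratio of wild type to wn1 of 2.31. SWEET13 and SWEET14 are close relatives whose reads may be shared. The sources used here do not say how the authors divided shared reads, here or among the oxidase, receptor and DELLA families.

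The measured genes acting around the DELLA proteins lay within 2-fold. SLY1, the F-box protein that marks DELLA proteins for destruction, had 17.8 FPKM in wild type and 12.2 FPKM in wn1, and its relative SNE had 1.15 and 1.88. SPY and SEC, enzymes that add sugars to DELLA proteins, stood at 8.36 and 57.4 FPKM in the wild-type library and at 8.98 and 43.3 FPKM in the wn1 library. SCL3, a GRAS protein that opposes DELLA action, had 11.7 and 14.9 FPKM. GAF1 and ENY, zinc finger partners of DELLA proteins, stood at 1.27 and 19.8 FPKM in the wild-type library and at 1.31 and 17.0 FPKM in the wn1 library. CYP714A1 and CYP714A2, cytochrome P450 enzymes that modify gibberellin precursors, stayed near or below 1 FPKM, and the methyltransferase genes GAMT1 and GAMT2 were listed at 0 in both.

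**Figure D4:**
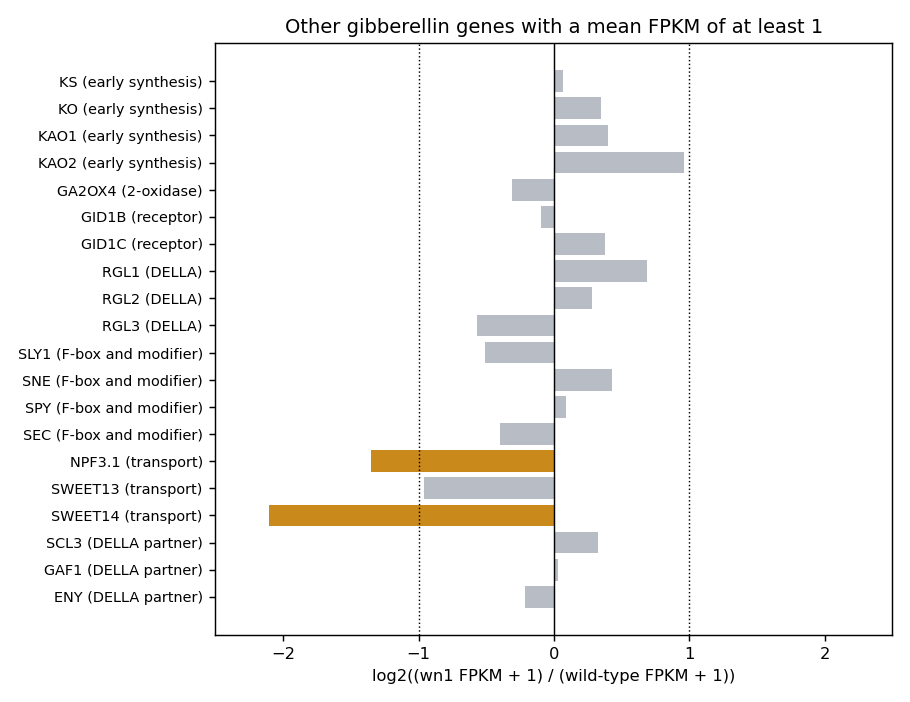
Log2 difference between wn1 and wild type for the 20 other gibberellin genes that were measured, by role, with dotted lines at 2-fold. Coloured bars mark NPF3.1 at -1.35 and SWEET14 at -2.11, and all other bars lie within 2-fold.

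Of 9 genes reported to be induced by DELLA proteins in seedlings, all measured, 3 were lower in wn1 by 2-fold or more and 6 lay within 2-fold, against 3.65% lower among all measured genes. Their median was -0.42, and AT2G45900, 1 of the 3, was measured only through the wild-type library. The 9 are a selection that left out all gibberellin genes described above, so their median does not stand for all DELLA-induced genes. XERICO, a RING protein linked to abscisic acid accumulation, had 25.8 FPKM in wild type and 7.55 FPKM in wn1. AT3G11280, a MYB-like gene, had 38.1 and 17.6, and AT2G45900 had 3.08 and 0.743. BOI (AT4G19700), a RING protein that binds DELLA proteins, went against the median with 9.91 and 16.5 FPKM. Genes that respond to gibberellin through growth were mixed. The list was not split by the direction of response, so its median does not measure the response. Of 9 such genes 8 were measured, with a median of 0.21 that was -0.20 without the filter on low values, and 4 lay above 0. GASA4, a small cysteine-rich protein gene, had 671 FPKM in wild type and 1151 FPKM in wn1, and GASA6 had 137 and 265. EXPA1, an expansin that loosens cell walls, was the 1 member at least 2-fold higher, with 94.0 and 320 FPKM, against 3.67% higher among all measured genes. PRE1, a small helix-loop-helix growth promoter, had 9.65 and 5.83 FPKM.

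Factors linked to GA3OX or GA20OX genes also differed in both directions, with 9 of 9 measured and a median of 0.06. PIF1 and SOM, repressors of GA3OX genes in dark-imbibed seed, stood at 27.2 and 41.9 FPKM in the wild-type library and at 22.8 and 34.2 FPKM in the wn1 library. ATH1, a homeodomain protein of the shoot apex, had 4.01 and 7.81 FPKM. KNAT1, a KNOX protein that represses GA20OX1 in the meristem, had 15.1 and 15.7 FPKM. The members at least 2-fold different were HY5, with a log2 difference of 1.99, PIF4 with -1.07 and PIF3 with -1.21, which are light-signalling factors. Of all measured genes, 7.32% reached 2-fold in either direction. Whether HY5, PIF4 and PIF3 act on GA3OX or GA20OX genes in these shoots was not tested.

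Tissue markers were measured beside these genes, and the counts below stand against 3.65% of all measured genes that were lower by 2-fold or more. Seed genes summed to 255 FPKM in wild type and to 95.2 FPKM in wn1. Of 8 seed markers 7 were measured, all 7 lay below 0 and 6 were at least 2-fold lower, and none was listed at 0. SESA1, 1 of the 6, was measured only through the wild-type library, with 0.660 FPKM in wn1. Vascular markers summed to 141 FPKM in wild type and 81.8 in wn1, with 2 of 4, the phloem genes SUC2 and APL, at least 2-fold lower. Root markers summed to 371 and 214 FPKM with 1 of 6 measured, IRT1, at least 2-fold lower, and the stem-cell root genes PLT1 and WOX5 stayed below 1 FPKM. IRT1 too was measured only through the wild-type library, with about 2 fragments in wn1. Of the 6 measured root markers 5 lay below 0, and CASP2 lay above it with 13.7 FPKM in wild type and 15.3 in wn1. PRP3 held most of both root sums, with 279 and 146 FPKM. EXPA7 had 35.9 and 22.7 FPKM, CASP1 25.1 and 20.6, and COBL9 12.55 and 7.595, so root transcripts were present in both libraries. Mesophyll markers stood between 1540 and 19784 FPKM in wild type and between 3006 and 13745 FPKM in wn1. Epidermal markers summed to 489 and 611 FPKM. Of the meristem markers WUS was listed at 0 in both libraries and CLV3 at 0 in wn1, while STM and CLV1 stood at 1.65 and 7.83 FPKM in the wild-type library and at 2.15 and 8.50 FPKM in the wn1 library. CLV3 had only 0.653 FPKM in wild type, on about 4 fragments, and its ratio interval of 0 to 1.24 included equality. The part of seed, vascular and root markers in the gibberellin gene differences was not tested.

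Under the 4 scalings tried, GID1A, RGA and GAI changed sign in at least 1, and the other 7 genes kept their direction wherever they had a value. Dividing each column by its own sum moved the median of all genes to -0.86. The reason is 1 plastid transfer RNA row, ATCG00010, with 54.1% of all FPKM in wn1 and 0 in wild type. FPKM is per transcript length, so that is no share of fragments. After the division, the log2 differences of GID1A and RGA became -0.35 and -0.56, and those of GA3OX2 and GA2OX2 became 0.48 and 0.92, within 2-fold. Relative to the shifted median, GA3OX2 stood at 1.34, GA2OX2 at 1.77, GA20OX2 at -1.53 and GA3OX1 at -2.93. On that footing GID1A stood at 0.51, RGA at 0.30 and GAI at -0.12, each with the same sign as deposited. Rescaling over protein-coding genes moved the median to 0.14 and turned GAI from -0.06 to 0.055.

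**Figure D5:**
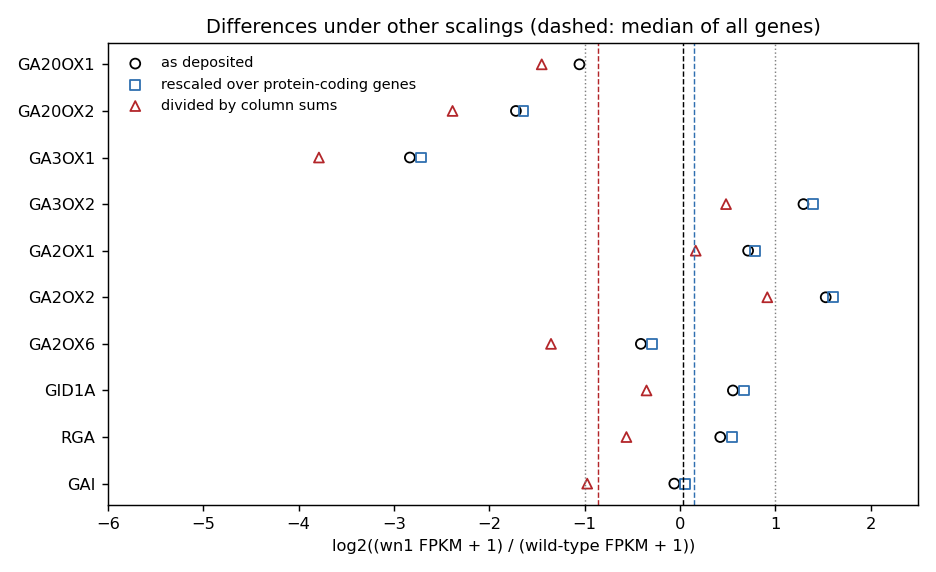
Log2 differences of the gibberellin genes as deposited, rescaled over protein-coding genes and divided by column sums, with dashed lines at the median of all genes under each scaling and dotted lines at 2-fold. Under division by column sums all points move left, and GA3OX1 lies at -3.79 while GID1A and RGA cross 0. GA20OX1 is drawn as deposited although its mean was below 1 FPKM, passed that limit when divided by column sums, and is not drawn under protein-coding rescaling.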

How the data were processed

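Total RNA was sequenced from shoots of 7-day-old wild-type and wn1 seedlings, 1 library each. The authors deposited FPKM per gene. The submitters' processing notes name Bowtie and TAIR10, while the sources used here give no counter, version, strand setting or filter. Each FPKM column was assigned to its sample by name, and 2 further value columns that name other material were not used.

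With Python 3.11.15, pandas 2.3.3 and scipy 1.17.1, log2 differences were computed with a pseudocount of 1 FPKM for genes with a mean of at least 1. Of the 10 genes, none overlaps another annotated gene in the reference annotation (TAIR10.1), which served only for names, transcript lengths and gene order. No sequence or coordinate is printed, because that reference differs from the build of the table.

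Depth was estimated from 876 genes with 1 transcript and both values under 0.3 FPKM. Dividing each ratio by 0.82 gave a quotient of integers no larger than 6, to within 0.5%, in 84.5% of cases, whereas a divisor 3 percent larger did so in 1.60%, so wn1 was 1.22 times as deep. Absolute depth was fitted with transcript lengths shortened by 260 bases, and was 12900000 and 15700000 fragments without that shortening. Ratio intervals are exact binomial or conditional 95% intervals on the estimated fragments. Reads copied by PCR are not independent, so these intervals cover only counting error.

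The depth estimate was checked on simulated data of known depth. The fold rule was run on simulated 4-fold changes with a chosen spread. With 1 library per genotype the true spread is unknown, so that run cannot show how the rule performs here. The genes, gene lists and rules were chosen with earlier results of these data known. The rule named all 10 genes, every other measured gibberellin gene and, in each context list, the gene with the highest mean and the 3 with the largest differences. Genes under the filter and the other context genes named were chosen after their values were seen. With 2 samples no gene could be named as most alike in pattern. Alternatives were another pseudocount, other filters, 4 scalings and a 4-fold threshold.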

Additional observations from a re-analysis of the deposited data

How the results depend on the processing

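No paired analysis was possible because each genotype has 1 library. GA20OX1, GA20OX2 and GA3OX1 stayed lower in wn1 and GA3OX2, GA2OX1 and GA2OX2 stayed higher under every alternative that gave them a value. GA3OX1 ranged from -3.79 to -2.71 and GA2OX2 from 0.92 to 2.27. Of the 10 genes, 2 counted as higher and 2 as lower. With a mean of at least 5 FPKM each count was 1, since GA20OX2 and GA2OX2 drop out, and at 4-fold 0 and 1. After division by column sums 0 were higher and 4 lower, beside 7026 lower among all 19018 genes measured there. The median of these gibberellin genes turned from 0.42 to -0.77. With a pseudocount of 0.1 FPKM GA2OX1 reached 1.20. Among other gibberellin genes, 1 was higher with a pseudocount of 0.1 or rescaled over protein-coding genes. There 1 was lower with a mean of at least 5 FPKM or at 4-fold. After division by column sums 8 were lower, again beside 7026 of all 19018 genes. The median of these other gibberellin genes was -0.0028 with a mean of at least 5 FPKM and -0.72 after that division. It made the medians of DELLA-induced genes -1.27, of growth genes -0.73, of regulators -0.89 and of reference genes -0.92. Regulators had -0.0925 with a mean of at least 5 FPKM, and growth genes -0.20 without a filter. Over the 19018 genes measured after division by column sums, 94 were higher and 7026 lower. The higher ones made up 1.32% of genes past 2-fold there, 50.2% as deposited and 63.0% rescaled over protein-coding genes. At 4-fold 72 were higher and 128 lower. Depth limits GA20OX1 and GA2OX7, with about 2 fragments and 1 in wn1.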
